A study of Saccharomyces cerevisiae with 12 samples.

Results

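Messenger RNA levels were described in wild-type budding yeast (Saccharomyces cerevisiae) held in zinc-limiting medium for 8 h. All 4 libraries of this strain were used, of 12 libraries in the series, and they were chosen by their label alone. The strain is BY4743, a diploid laboratory strain in common use, and it carries no deletion of an autophagy gene. Cells were grown with ample zinc, washed 3 times and moved to the zinc-limiting medium at 30 °C. Polyadenylated RNA from 1 µg of total RNA was read as single 100-base reads. The other libraries are of 2 deletion strains, atg1Δ and atg41Δ, and they were not used here. No zinc-replete library was used, so every value below is a level after zinc limitation and none is a response to it.

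Zinc is a cofactor or structural part of many yeast proteins, so cells keep its supply under close control. The transcription factor Zap1 senses cellular zinc and, when zinc is scarce, activates genes for zinc uptake, for release of zinc stored in the vacuole and for saving zinc elsewhere in metabolism. It does so by binding a short near-palindrome upstream of its targets, the zinc-responsive element. A second metal regulon, that of the iron-sensing factors Aft1 and Aft2, covers iron uptake at the cell surface and is read through its own short upstream motif.

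Levels are the authors' deposited TPM, the transcript abundance scaled by gene length and by the library's total, and they can therefore be compared between genes. A level is given for WT libraries 1, 2, 3 and 4 in that order, or as mean ± SD over these 4. The libraries held 10378998, 10248865, 9658658 and 11247182 expected counts, and 6439 to 6463 of 6660 features had a count. For a gene of 1000 bases, 1 count was worth 0.0821 to 0.0955 TPM. Each pair of libraries differed beyond counting noise (chi-square per feature 4.27 to 8.32), so all 4 were counted. The labels do not say that the 4 came from separate cultures, so the spread may be technical in part. In bulk RNA, fewer cells that make a transcript and less of it per cell cannot be told apart.

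The strain label was read against genes whose state is known in this background. LEU2 and URA3, both deleted in BY4743, had 0 counts in all 4 libraries, while ADE2, an intact gene of adenine synthesis, averaged 300.2 ± 7.98 TPM. HIS3 had 165, 158, 142 and 145 TPM. The HIS3 allele of this background is known as a partial deletion that leaves much of the gene, so its level does not check the label. A diploid holds both mating types, and the proteins a1 and α2 together shut off the genes that only haploid cells use. The gene for a1 (read at its copy HMRA1) had 69.0, 62.4, 85.5 and 81.6 TPM. The gene for α2, split by the authors' counting between identical copies, had 53.6, 53.0, 63.8 and 53.1 TPM at each copy. Both were therefore present in every library. The 14 haploid-specific genes had a median of 10.2 TPM, against 38.9 TPM for all features, with AMN1, a regulator of cell separation, the highest at 87.6 TPM. The lowest values were those of MATALPHA1, at 0.978 TPM at each of its identical copies, HO, the mating-type switching endonuclease, at 1.105 TPM, and FUS3 at 1.48 TPM. The level of MATALPHA1 was split between copies, so its place below HO and FUS3 rests on that split. The 7 a-specific and 5 alpha-specific genes had medians of 5.93 and 8.72 TPM. The first median is the value of MFA2, which like MFA1 had only 5 counts over the 4 libraries, too few for a firm level. In these lists the highest and lowest genes were STE6, the a-factor exporter, at 14.7 TPM and AGA2, an agglutinin subunit, at 2.95 TPM, and SAG1, the alpha-agglutinin, at 36.7 TPM and MF(ALPHA)1, a pheromone precursor, at 2.36 TPM.

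The motifs through which the 2 metal regulators are known to act were sought upstream of genes. Short stretches are shown first for some of the genes that have a match. Each is read 5′ to 3′ on the gene's own strand from the R64 assembly (NCBI RefSeq), and capitals mark a match. For the 7 zinc genes below, capitals mark the zinc-responsive element (ACCTT, any 1 base, AAGGT) with at most 1 mismatch on either strand. For FIT3 and FIT2 they mark TGCACCC, the core of the Aft1 site, or its reverse complement.
ZRT1: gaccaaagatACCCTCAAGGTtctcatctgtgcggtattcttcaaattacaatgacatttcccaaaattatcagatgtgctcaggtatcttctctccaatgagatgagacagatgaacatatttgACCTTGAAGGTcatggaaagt
ZRT2: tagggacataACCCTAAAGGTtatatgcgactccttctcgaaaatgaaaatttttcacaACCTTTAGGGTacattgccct
ZRT3: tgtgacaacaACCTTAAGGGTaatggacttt
ZRC1: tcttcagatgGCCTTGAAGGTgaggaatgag
ZRG17: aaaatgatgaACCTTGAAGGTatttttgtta
ZAP1: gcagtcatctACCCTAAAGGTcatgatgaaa
ZPS1: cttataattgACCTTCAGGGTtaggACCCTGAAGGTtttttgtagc
FIT3: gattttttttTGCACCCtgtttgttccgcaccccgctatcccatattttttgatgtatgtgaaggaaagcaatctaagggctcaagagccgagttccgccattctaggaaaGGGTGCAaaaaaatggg
FIT2: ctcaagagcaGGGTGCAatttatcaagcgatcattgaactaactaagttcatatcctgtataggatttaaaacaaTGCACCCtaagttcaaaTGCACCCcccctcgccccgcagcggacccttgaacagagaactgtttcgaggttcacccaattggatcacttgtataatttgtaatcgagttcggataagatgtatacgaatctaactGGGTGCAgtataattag

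These windows lie at chrVII:20649-20794 on the plus strand (ZRT1), chrXII:404304-404383 on the minus strand (ZRT2), chrXI:118628-118658 on the plus strand (ZRT3) and chrXIII:756320-756350 on the minus strand (ZRC1). The ZRG17 window is chrXIV:699495-699525 and the ZAP1 window chrX:333197-333227, both on the minus strand. ZPS1 was read at chrXV:34319-34364 on the plus strand, FIT3 at chrXV:1061223-1061350 on the minus strand and FIT2 at chrXV:1059190-1059416 on the plus strand. ZRT1 had its exact match 204 bases before the start codon and its match with 1 mismatch at 319 bases. ZPS1 had its matches 329 and 314 bases before the start codon, with no base shared between them. FIT3 had TGCACCC at 285 and 184 bases, and FIT2 had it at 331, 266, 249 and 131 bases.

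Over the 500 bases upstream of 5983 annotated coding genes, the exact form (ACCTT, any 1 base, AAGGT) stood in 9 windows (0.15%) and the form with at most 1 mismatch in 118 (1.97%). The form with at most 1 mismatch stood upstream of 6 of the 7 Zap1-regulated zinc transport genes (85.7%) and of 12 of all 32 listed Zap1 targets (37.5%). The exact form stood upstream of 4 of those 32, namely ZRT1, RTC4, ZRG17 and MCD4. The other 5 genes with the exact form were SDH8, TEX1, PAN1, MRX15 and PCD1, with PCD1 the lowest at 24.96 TPM and SDH8 the highest at 237 TPM. TEX1 and MRX15 are the divergent neighbours of RTC4 and ZRG17 and share the site with them. TGCACCC stood in 139 windows (2.32%) and upstream of 19 of 27 iron regulon genes (70.4%), with FIT3 and FRE5 reading the same sites from opposite strands. Among the 20 most abundant genes, 4 had the zinc-type match (ZPS1, ZRT1, TEF2 and GPM1) and 3 had TGCACCC (FIT3, FIT2 and TEF2). YOR387C and VEL1, listed Zap1 targets also among these 20, had no zinc-type match in the window. The listed targets TSA1, ATG41 and ADH4 had none either. The matches in TEF2 lie apart from each other. A match is a run of letters in a window, and binding was not measured.

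The transcriptome was concentrated in few genes. In the mean over libraries, 21 genes made up 25% of all TPM, 180 genes 50%, 881 genes 75% and 2477 genes 90%. The 10 most abundant genes took 18.3%, 17.2%, 16.3% and 17.6% of the TPM (17.4 ± 0.82%, SD, n = 4). The median feature stood at 38.9 TPM, and the 145 features at 1000 TPM or more held 46.8% of the total. The same 20 genes were the 20 highest in each of the 4 libraries.

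The most abundant transcript was FIT3, which encodes a cell wall mannoprotein that holds iron-bearing siderophores. FIT3 had 38138, 35906, 32582 and 36966 TPM (35898 ± 2391 TPM), or 3.59% of all TPM. Next came ZPS1, a Zap1 target that encodes a cell surface protein related to zinc metalloproteinases, at 30282, 28966, 28224 and 30020 TPM. TDH3, the main glyceraldehyde-3-phosphate dehydrogenase of glycolysis, was the third, at 24649, 22897, 21940 and 23345 TPM. A gene for metal homeostasis thus stood above the most abundant glycolytic gene in every library, since the lowest ZPS1 value exceeded the highest TDH3 value and FIT3 exceeded both.

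YOR387C, a Zap1 target of unknown function, had 15903, 14312, 14383 and 15270 TPM. ZRT1, the high-affinity zinc importer of the plasma membrane, had 12711, 12383, 12240 and 12948 TPM. FIT2, a second siderophore-holding mannoprotein, had 13736, 12776, 11478 and 12260 TPM. VEL1, a Zap1 target closely related to YOR387C, had 13172, 12264, 11877 and 12766 TPM. ZRT1, FIT2 and VEL1 overlapped in their ranges, so the order among these 3 does not exceed the spread between libraries.

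PDC1, the main pyruvate decarboxylase of fermentation, had 12228, 11523, 10894 and 11274 TPM. CCW12, a structural mannoprotein of the cell wall, had 12224, 11212, 10822 and 11269 TPM. PDC1 was the higher in all 4 libraries, but the ranges of these 2 genes overlapped. YDR524C-B, an uncharacterized protein of only 201 coding bases, had 10047, 9685, 8926 and 9672 TPM. Its level rests on the length used, since with the plain coding length in place of the authors' effective length it came to 5973 TPM and rank 21. It was the gene that left the 20 highest on that scale, where 19 were shared.

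The 10 genes that follow were AHP1, a thioredoxin peroxidase (9284 ± 302 TPM), TEF2 and TEF1, nearly identical genes for the elongation factor that brings tRNA to the ribosome (8288 ± 142 and 7115 ± 169 TPM), the cell wall protein gene SED1 (5958 ± 248 TPM) and 6 genes of glycolysis. These glycolytic genes were GPM1 (7952 ± 207 TPM), ENO2 (7667 ± 284 TPM), ENO1 (7219 ± 251 TPM), FBA1 (7127 ± 97.9 TPM), TDH1 (6490 ± 326 TPM) and TPI1 (5890 ± 96.0 TPM). By listed role, the 20 highest comprised 7 genes of glycolysis, 4 Zap1 targets, 2 iron regulon genes, 2 of the cell wall, 2 translation factors, 1 of fermentation, 1 of peroxide defence and 1 in no list. None was a ribosomal protein or histone gene. Library 1 held the highest value of 15 of the 20 and library 3 the lowest value of 15.

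**Figure D1:**
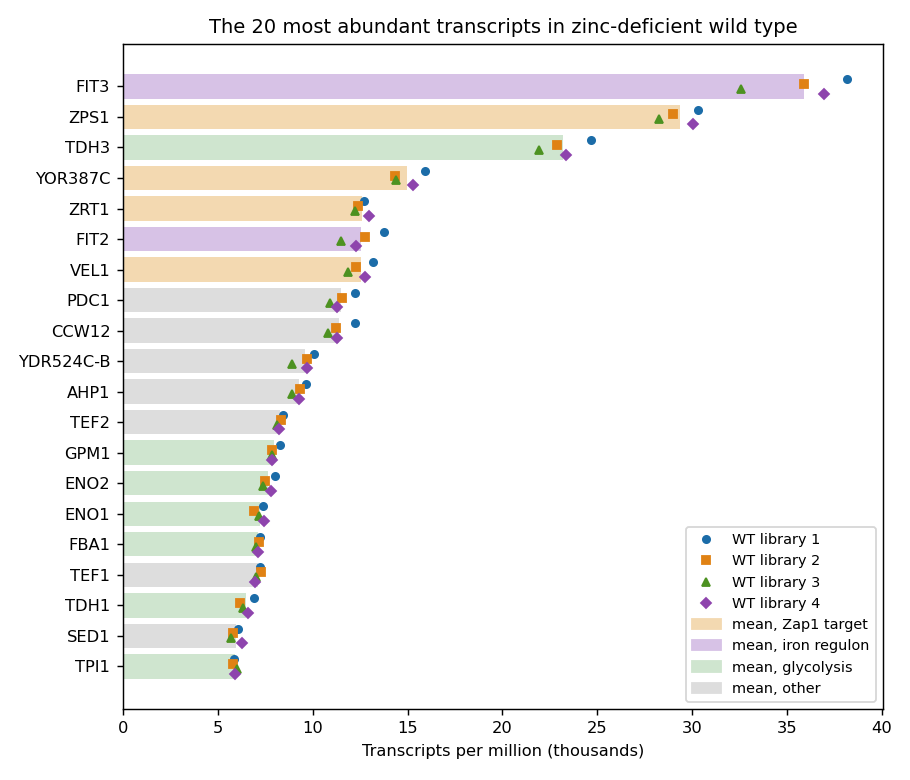
Levels of the 20 most abundant transcripts. Bars give the mean TPM (linear axis, in units of 1000 TPM) over the 4 wild-type libraries, points the single libraries and bar colours the listed role. FIT3 and ZPS1 lie above TDH3 in all 4 libraries.

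Zap1 targets as a group, 32 genes listed from earlier knowledge of the regulon, made up 9.28%, 8.81%, 8.74% and 9.20% of all TPM (9.01 ± 0.27%). All 32 were above 1 TPM in all 4 libraries, and 29 of them stood above the median of all features, which by its definition 50% of features exceed. Their own median was 409 TPM. The 4 genes ZPS1, YOR387C, ZRT1 and VEL1 held 32.6%, 16.6%, 14.0% and 13.9% of the group's TPM, so the group's share is mainly that of these 4.

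Among the zinc transport genes, ZRT1 was the highest, as given above. ZRT3, which releases zinc from the vacuole, had 2533, 2506, 2369 and 2621 TPM. ZRT2, the low-affinity zinc importer, had 1736, 1693, 1690 and 1784 TPM. These 3 levels did not overlap between genes in any library. FET4, a low-affinity importer of iron and other metals including zinc, had 831, 829, 887 and 847 TPM. ZRC1, which moves zinc into the vacuole, had 688, 668, 642 and 680 TPM. ZAP1 itself, whose product activates its own gene, had 340, 364, 373 and 364 TPM. ZRG17, part of the zinc importer of the secretory pathway, was the lowest of the 7, at 235, 248, 232 and 235 TPM. The vacuolar exporter ZRT3 thus stood above the vacuolar importer ZRC1 in all 4 libraries, and the uptake gene ZRT1 stood above every other member. These 7 genes together took 1.89 ± 0.046% of all TPM. Genes of zinc movement that are not Zap1 targets had PHO84 as the highest, a phosphate importer that can carry zinc, at 327 ± 8.39 TPM and COT1, a second vacuolar zinc importer, at 189 ± 3.08 TPM. SMF2, YKE4 and MSC2, which move metals between compartments, stood at 109.6, 80.1 and 56.9 TPM.

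The other 25 targets held 7.11 ± 0.23% of all TPM and covered a wide range. Below the 3 already named, TSA1, a peroxiredoxin that also acts as a chaperone, had 4976, 4739, 5007 and 4756 TPM. ATG41, needed for full autophagy, had 2017, 1908, 2025 and 2176 TPM. The vacuolar proteases PRC1 (carboxypeptidase Y) and PEP4 (proteinase A) averaged 1285 ± 67.4 and 1014 ± 35.7 TPM. These vacuolar and autophagy genes all ranked among the 143 highest features. HNT1, a nucleotide hydrolase, averaged 919 ± 32.5 TPM, ADH4, an alcohol dehydrogenase, 888 ± 6.64 TPM, and RTC4 664 ± 27.6 TPM.

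A middle group followed. RAD27, a flap endonuclease of DNA replication, had 417 ± 27.7 TPM, NRG2, a transcriptional repressor, 400.4 ± 22.8 TPM, and DPP1, a phospholipid phosphatase of the vacuole, 359 ± 9.05 TPM. PIS1, phosphatidylinositol synthase, had 308 ± 13.7 TPM and IZH1, a membrane protein linked to zinc homeostasis, 268 ± 12.5 TPM. MNT2, a mannosyltransferase, had 221 ± 5.06 TPM and MCD4, of glycolipid anchor synthesis, 215 ± 8.13 TPM. Genes of phospholipid synthesis in the Zap1 list thus spread widely, because the kinase genes of the ethanolamine and choline branches, EKI1 and CKI1, stood at 33.2 ± 2.20 and 38.9 ± 2.11 TPM, near the median of all features.

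The rest of the list, with EKI1 and CKI1, formed its lower end. IZH2 had 104.6 ± 3.53 TPM, URA10, of pyrimidine synthesis, 81.3 ± 0.972 TPM, YOL131W 65.3 ± 6.15 TPM and KTI12, of tRNA modification, 54.8 ± 2.75 TPM. ZRG8 had 22.1 ± 1.75 TPM. IZH4, of the same family as IZH1 and IZH2, was the lowest target, at 6.89, 8.42, 7.64 and 9.26 TPM. From ZPS1 to IZH4 the list spanned ranks 2 to 5835 of 6660.

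**Figure D2:**
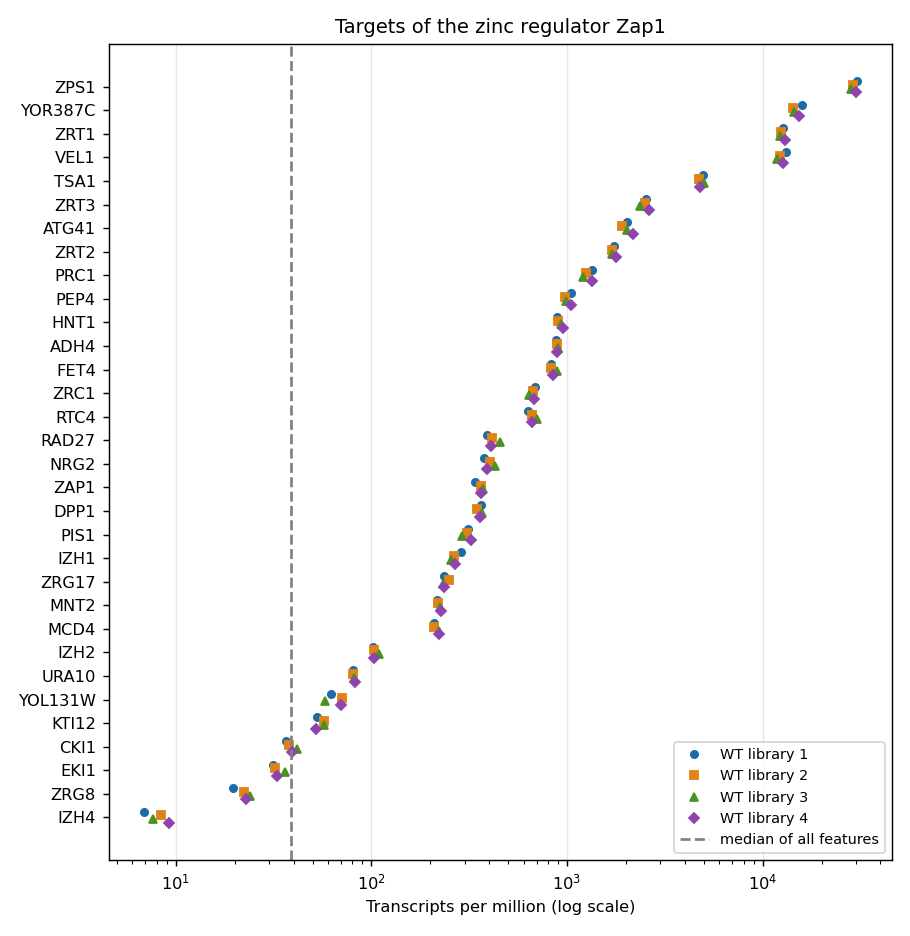
TPM (log axis) of the 32 Zap1 targets in the 4 wild-type libraries, ordered by mean, with the median of all features (38.9 TPM) dashed. The spread between genes, 8.05 to 29373 TPM, is far wider than the spread between libraries of any 1 gene.

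Zap1 also lowers the expression of ADH1 and ADH3, genes of zinc-dependent alcohol dehydrogenases of the cytosol and the mitochondrion. ADH1 had 2380, 2310, 2147 and 2430 TPM, rank 45 of 6660, and ADH3 330.3, 330.4, 341.0 and 341.4 TPM, rank 452. ADH1 was the most abundant of the alcohol dehydrogenase genes in every library, above the Zap1-activated ADH4. The 38 measured genes of a list of zinc-binding enzymes took 1.44 ± 0.027% of all TPM. Its most abundant members were FBA1 (above), ADH1, the carbonic anhydrase gene NCE103 (729, 914, 663 and 819 TPM), the superoxide dismutase gene SOD1 (412 ± 16.7 TPM) and ADH3. FBA1 thus stood well above every other gene of this list.

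The iron regulon, 27 genes, took 6.69%, 6.35%, 5.85% and 6.45% of all TPM (6.33 ± 0.35%), and all 27 members stood above the median of all features (50%). FIT3 and FIT2 made up 56.7% and 19.8% of that sum. FET3, the multicopper oxidase of high-affinity iron uptake, had 2792, 2749, 2637 and 2750 TPM, and its partner permease FTR1 had 2566, 2448, 2424 and 2642 TPM. The products of these genes work as a complex, and FET3 was the higher in all 4 libraries. The siderophore transporters ARN2, ARN1, SIT1 and ENB1 averaged 1683 ± 60.4, 1137 ± 47.8, 1095 ± 33.4 and 726 ± 20.2 TPM. FIT1, the third of the mannoprotein genes, had 991 ± 58.6 TPM. TIS11, which promotes decay of iron-consuming mRNAs, had 899 ± 25.9 TPM and its paralog CTH1, the lowest member, 41.3 ± 3.63 TPM. The genes of the regulators themselves were modest, AFT1 at 98.5 ± 4.95 TPM and AFT2 at 44.1 ± 4.32 TPM. Zap1 targets and iron regulon together, 59 genes, held 15.3 ± 0.60% of all TPM.

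Several of the most abundant metal genes are neighbours. On the left arm of chromosome VII, VEL1, MNT2, ADH4 and ZRT1 are 4 consecutive Zap1 targets and together held 2.70%, 2.58%, 2.52% and 2.68% of all TPM (2.62 ± 0.084%). Their flanking genes were low, with YGL258W-A at 8.47 ± 2.37 TPM and FZF1, a sulfite-tolerance regulator, at 12.1 ± 0.44 TPM. FZF1 begins at base 22304, close beyond the end of ZRT1 at base 22108, although ZRT1 averaged 12570 TPM. On the right arm of chromosome XV, FIT2 and FIT3 lie next to each other and held 4.85 ± 0.32% of all TPM. FRE5, a ferric reductase gene at 143 ± 3.15 TPM, follows FIT3, with YOR387C 3 genes further on. On the other side, YOR381W-A (27.1 ± 4.89 TPM) lies between FIT2 and the ferric reductase gene FRE3 (139 ± 2.91 TPM). YOR385W and PHR1, a DNA photolyase, lie between FRE5 and YOR387C and had 21.3 ± 1.53 and 22.0 ± 0.43 TPM. The high levels on this arm were thus those of single genes and not of the whole stretch. On the left arm of chromosome XV, ZPS1 stood between HPF1, a cell wall mannoprotein gene at 1235 ± 71.5 TPM, and FRE7, at 19.3 ± 0.82 TPM.

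**Figure D3:**
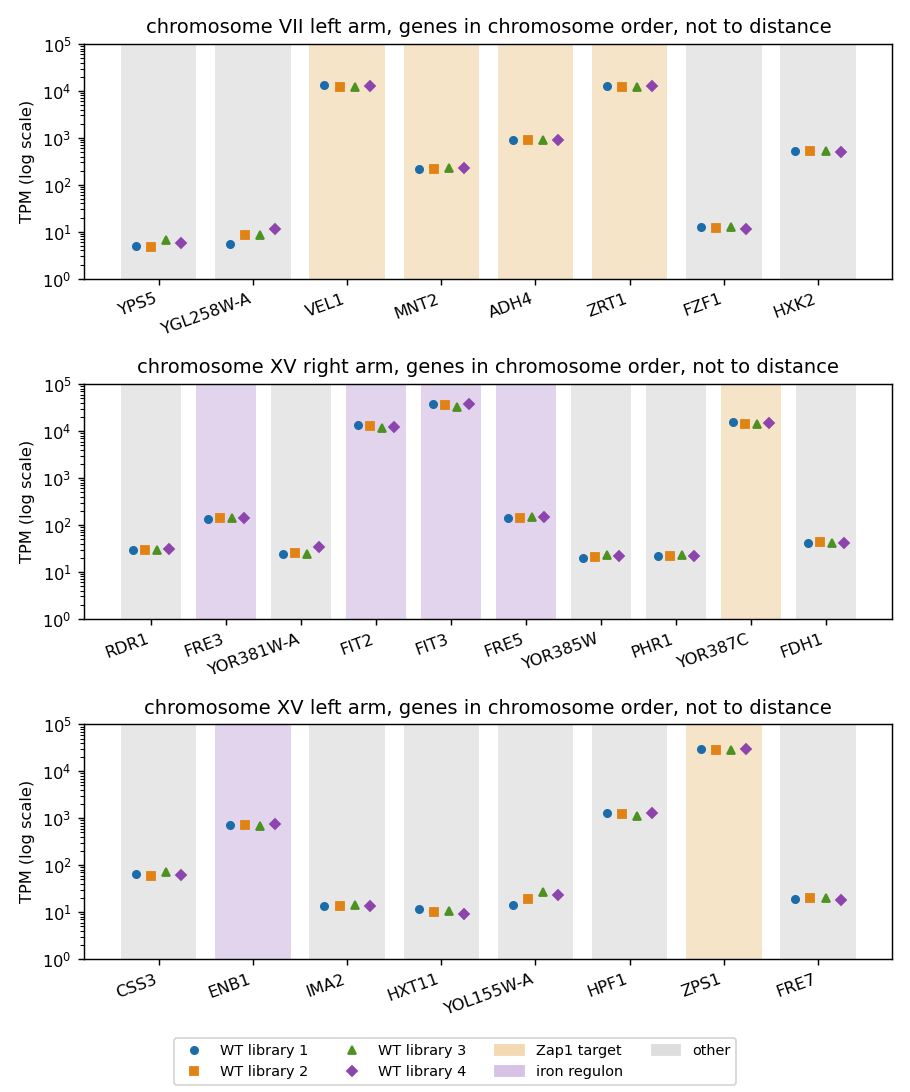
TPM (log axis) of consecutive genes in 3 chromosome stretches, in chromosome order and not to distance. Points are the 4 wild-type libraries and shading the listed role. Neighbours of ZRT1, FIT3 and ZPS1 lie at 12.1 to 1235 TPM or are themselves metal genes.

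Genes of central metabolism and growth also took large shares. The 17 glycolysis genes held 8.51%, 8.02%, 7.90% and 8.21% of all TPM (8.16 ± 0.26%), below the 32 Zap1 targets in each library. Genes with a ribosomal protein symbol (RPL, RPS or RPP, 138 genes) held 12.3%, 13.0%, 12.9% and 11.8% (12.5 ± 0.58%), with a median of 803 TPM and the highest single gene, RPS29A, at 2515 ± 102 TPM. The symbol rule also took in RPP1, a subunit of the RNA-processing enzyme RNase P and not a ribosomal protein, at 36.2 TPM. RPS31, RPS28A, RPS30A and RPS25A followed, at 2312, 2300, 2287 and 1911 TPM. The order rests on the length used, since with plain coding length RPS29A came to 1296 TPM, RPS28A to 1454 and RPS30A to 1360 TPM, against 2241 TPM for RPS31. This share was spread over many genes of moderate level, while that of the metal genes was held by few. As shares of counts, which favour long genes, ribosomal proteins took 5.27%, Zap1 targets 7.80% and glycolysis 9.62%, so the order of these groups depends on the length scaling.

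Cell wall genes (19) held 3.45 ± 0.14% of all TPM, led by CCW12, SED1, CWP2 (4375 ± 276 TPM), HSP150 (3291 ± 162 TPM) and BGL2 (1939 ± 51.9 TPM). Translation factors (20 genes) held 2.40 ± 0.040%, and histones (11 genes) 2.01 ± 0.049%. The histone genes HHF1, HTA1, HHT1 and HTB1, for H4, H2A, H3 and H2B, had 3274, 3015, 2898 and 2829 TPM, and their second copies HHF2, HTA2, HHT2 and HTB2 had 2340, 1153, 2656 and 1397 TPM. The second copies of the H2A and H2B genes were thus the lowest of these 8. Among the autophagy genes ATG41 stood far above the rest, and the list median was 31.0 TPM over 22 genes, against 38.9 TPM for all features. ATG8, the ubiquitin-like protein of the autophagosome membrane, was the next highest at 105 ± 4.21 TPM, and ATG10 the lowest at 9.88 TPM. The list of galactose and maltose genes, which glucose represses, also held SUC2, invertase. The list had a median of 7.91 TPM, with MAL12 the lowest at 1.06 TPM. SUC2 was the highest at 63.3 TPM, followed by GAL80 at 50.35 TPM.

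Gene pairs listed as related in sequence or role were compared within each library. The value is the log2 ratio of TPM, first gene over second, with 1 TPM added to each, as mean ± SD over the 4 libraries. Of 191 pairs, 185 (96.9%) had the same member higher in all 4 libraries, 29 pairs differed by 10-fold or more and 85 by less than 2-fold. These counts include RPL41A/RPL41B, both at 0 TPM because the genes are shorter than a read, a pair that holds no information. Some genes, such as ADH1 and TDH3, stand in more than 1 pair. How often genes paired at random keep their order was not counted, so whether 96.9% is particular to these pairs was not tested. With 4 libraries an exact sign-flip permutation test of 1 pair cannot give a two-sided p below 0.125, so no test was made. The 59 ribosomal protein pairs had a median absolute log2 ratio of 0.69, against 1.41 for the 132 other pairs. They also were more alike in sequence, with a median coding identity of 93.2% against 68.2%, and the sources used here do not state how reads of near-identical copies were divided.

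The most unequal pairs were those of PDC1, a fermentation gene. PDC5 and PDC6, the minor pyruvate decarboxylase genes, had 24.97, 22.7, 22.3 and 23.8 TPM and 8.24, 5.74, 8.77 and 8.72 TPM. PDC1 thus exceeded them by 8.88 ± 0.042 and 10.35 ± 0.28 on the log2 scale. ADH2, the dehydrogenase that consumes ethanol, had 15.9, 16.9, 14.4 and 15.8 TPM, and ADH1 exceeded it by 7.11 ± 0.070. In glycolysis, CDC19 exceeded the second pyruvate kinase gene PYK2 by 6.91 ± 0.10 and GPM1 exceeded GPM2 by 6.97 ± 0.12. The 3 glyceraldehyde-3-phosphate dehydrogenase genes were ordered TDH3, TDH1 and TDH2 in every library, with TDH3 over TDH1 at 1.84 ± 0.044, TDH3 over TDH2 at 3.32 ± 0.027 and TDH2 over TDH1 at -1.48 ± 0.064. The enolase genes were nearly level, with ENO2 over ENO1 at 0.09 ± 0.037 and ENO2 higher in all 4.

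Pairs with a Zap1 target covered the whole range. ZRT1 over ZRT2 was 2.87, 2.87, 2.86 and 2.86 in the 4 libraries (2.86 ± 0.0078), nearly the same in each library. TSA1 exceeded the second peroxiredoxin gene TSA2 (20.2, 19.8, 21.3 and 19.2 TPM) by 7.85 ± 0.032. ZRC1 exceeded COT1 by 1.82 ± 0.058, IZH1 exceeded IZH4 by 4.90 ± 0.20 and DPP1 exceeded LPP1 by 3.21 ± 0.080. TSA1, ZRC1 and DPP1, each paired with a gene outside the list of Zap1 targets, were the higher. ZRT1/ZRT2 and IZH1/IZH4 each hold 2 Zap1 targets, so a target is the higher there in any case. ADH4 and URA10, also paired with genes outside that list, were the lower, with ADH1 over ADH4 at 1.38 ± 0.087 and URA5 over URA10 at 1.57 ± 0.079. CKI1 over EKI1, both targets, was 0.23 ± 0.028. VEL1 over YOR387C was -0.26 ± 0.024, YOR387C being the higher in all 4 libraries. These 2 genes are 92.4% identical in their coding sequence, and their 300-base upstream stretches align with 298 identical bases, 1 mismatch and 2 gap positions. Their sum, which does not depend on how shared reads were split, was 27487 ± 1312 TPM, or 2.75% of all TPM.

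Among other abundant pairs, HSP150 exceeded PIR3 by 6.80 ± 0.039, PMA1, the plasma membrane proton pump, exceeded PMA2 by 6.21 ± 0.033, and CWP2 exceeded CWP1 by 4.80 ± 0.12. ADH1 exceeded ADH5 by 4.99 ± 0.13 and ADH3 by 2.78 ± 0.089. The histone pairs were closer, with HTA1 over HTA2 at 1.39 ± 0.036, HTB1 over HTB2 at 1.02 ± 0.062, HHF1 over HHF2 at 0.48 ± 0.038 and HHT1 over HHT2 at 0.13 ± 0.031. TEF1 over TEF2 was -0.22 ± 0.019, but their coding sequences are 99.9% identical. PMP1 over PMP2, short regulators of the proton pump, was 0.31 ± 0.048 in TPM, and its sign turned on other length scalings. RPS28A over RPS28B was 1.63 ± 0.15, RPS30A over RPS30B 0.75 ± 0.12 and RPS29A over RPS29B 0.56 ± 0.046. Ribosomal protein pairs reached 3.63 ± 0.10 for RPL15A over RPL15B.

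In the smallest ratios neither gene was consistently higher. RPL21A over RPL21B was 0.01 ± 0.060, PHO87 over PHO90, low-affinity phosphate transporters, 0.01 ± 0.072, SSA1 over SSA2, Hsp70 chaperones, -0.02 ± 0.066, and PFK26 over PFK27, kinases that make a glycolytic activator, 0.04 ± 0.077. RPL24A over RPL24B was 0.04 ± 0.031, with RPL24A higher in all 4. The oxygen-dependent subunit pair COX5A over COX5B, of which COX5B is known as the hypoxic form, was -1.16 ± 0.17, and the citrate synthase pair CIT1 over CIT2 was -1.16 ± 0.066. Both pairs were chosen for mention after their values were seen.

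**Figure D4:**
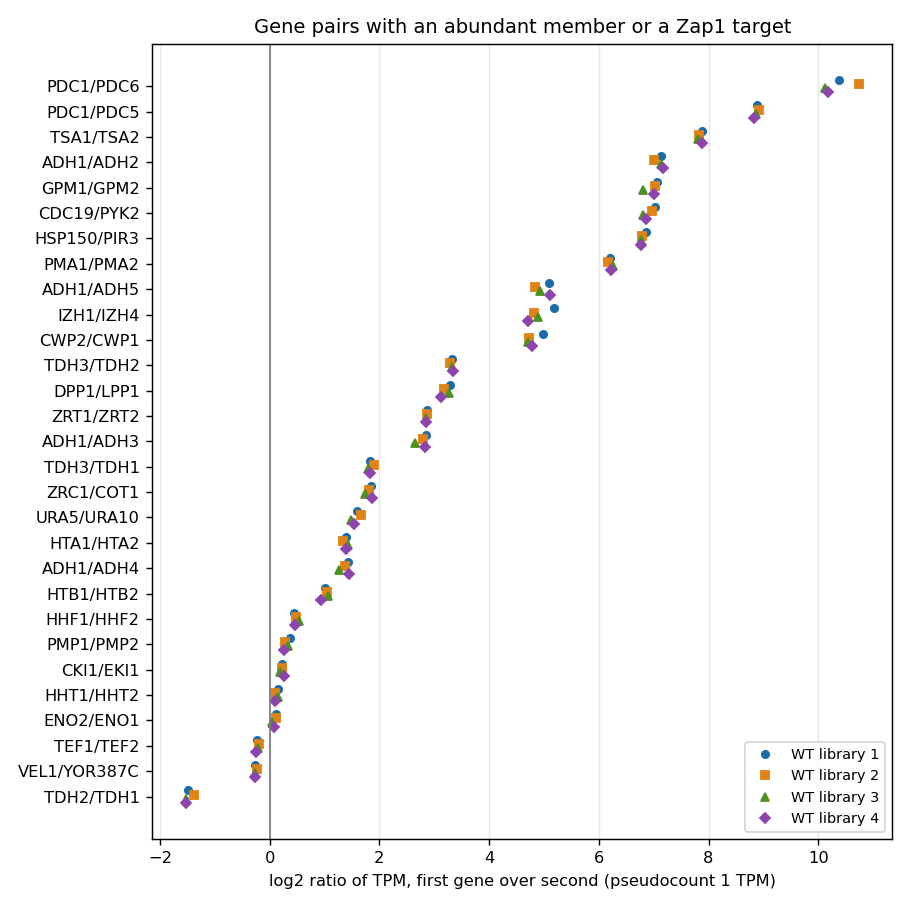
log2 ratio of TPM, first gene over second, in the 4 wild-type libraries for pairs with a gene among the 50 most abundant or a Zap1 target, ribosomal proteins left out. Points right of 0 have the first gene higher, and only TEF1/TEF2, VEL1/YOR387C and TDH2/TDH1 lie left of it.

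Few genes were silent. Under 1 TPM in all 4 libraries stood 222 of 6660 features (3.33%), and 128 of these features had 0 counts throughout (1.92%). Of features found in the R64 annotation, 116 of 5986 (1.94%) were under 1 TPM, against 106 of 674 (15.7%) of those not found there. Features with 0 counts lie below the limit that a count of 0 allows, 3 counts per library or 0.267 to 0.311 CPM, which covers counting error only.

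Gene length bears on this count. The authors' effective length equalled the coding length minus 99 bases to within 1% for 99.7% of the features compared, so a gene shorter than a read had no measurable level. All 21 genes with a coding length under 100 bases were under 1 TPM, among them RPL41A and RPL41B, whose ribosomal protein is the smallest in yeast. Their value says nothing about their expression. Of genes of 100 bases or more, 95 of 5964 (1.59%) were under 1 TPM.

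Genes near chromosome ends were more often silent, a description with no test. Within 20 kb of an end, 25 of 247 genes (10.1%) were under 1 TPM in all 4 libraries, against 91 of 5739 further in (1.59%). The share was 16.4% within 10 kb of an end, and 5 of 125 genes were under 1 TPM between 10 and 20 kb. The median level was 7.02 TPM in the outer 10 kb and 44.1 TPM beyond 50 kb. Near-identical families lie at the ends, so their reads may be divided among copies. Within 20 kb of an end, 2 of 247 genes ranked among the 100 highest, against 91 of 5739 further in. The 2 near an end are both metal genes. They are VEL1 and the siderophore transporter gene ARN2 (1683 TPM), singled out after their values were seen.

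**Figure D5:**
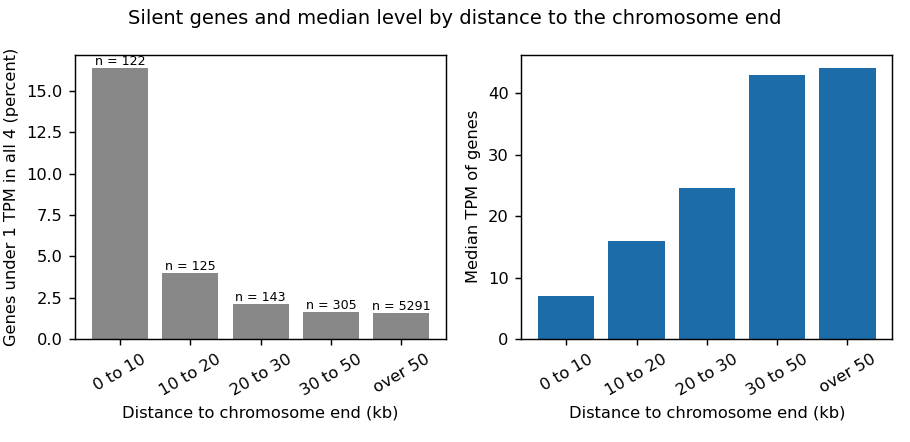
Left, percent of genes under 1 TPM in all 4 wild-type libraries by distance to the nearest chromosome end (kb), with the number of genes. Right, median TPM of the same genes. The share is 16.4% in the outer 10 kb and 1.57% beyond 50 kb, and the median is lowest in the outer 10 kb.

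The named genes under 1 TPM in all 4 libraries numbered 39 of 5255 (0.742%). They include LEU2 and URA3, which the strain lacks, and RPL41A, RPL41B and MIN3, which are shorter than a read. The values of these genes do not show silence. Of 54 genes of meiosis and sporulation, 7 were under 1 TPM, and the list had a median of 6.17 TPM. Its lowest member was OSW1, of the spore wall, at 0.085 TPM and its highest SPR6 at 59.8 TPM. IME1, the regulator that starts meiosis, was not silent, with 27.0, 28.0, 30.2 and 30.7 TPM. Of 30 measured genes in the PAU list, cell wall genes linked to low oxygen that include TIR and DAN genes, 4 were under 1 TPM. PAU1 and PAU14 had the same values in every library, so their reads may be divided between copies. Of 90 genes of Ty transposons, 21 were under 1 TPM, 18 of them with 0 counts. Ty genes are repeated sequences, so their reads may be divided among copies and a low value need not mean silence. The hexose transporter genes HXT10, HXT14 and HXT16 were under 1 TPM. HXT3 and HXT1, the low-affinity transporters used with ample glucose, had 682 ± 4.52 and 433 ± 15.6 TPM. HXT16 had 0 counts in all 4 libraries, while HXT15 had 12.8 ± 0.664 TPM. Reads of related transporter genes may be divided among copies, so the 0 of HXT16 need not mean silence.

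Variation between the 4 libraries was small for most genes. Among 5486 features with a mean of 100 counts or more, the median coefficient of variation of TPM was 5.42%, against 3.76% from counting alone, and 633 features (11.5%) exceeded 10%. Zinc transport genes had a median of 3.01% and glycolysis genes 3.47%, while ribosomal protein genes had 6.01% and ribosome biogenesis genes 8.02%. Ribosome biogenesis genes varied together, with median levels of 0.92, 1.06, 1.07 and 0.95 of their own means in libraries 1 to 4, and ribosomal protein genes with 0.98, 1.05, 1.03 and 0.94. Libraries 2 and 3 were thus the higher for both.

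The most variable features were repeated sequences. Of the 10 with the largest coefficient of variation, 7 are Ty genes, 2 are the near-identical COS2 and COS3 and 1, YLR154W-E, lies in the ribosomal DNA. COS3 had 67.8, 68.8, 14.1 and 131 TPM and COS2 67.8, 68.8, 123 and 12.8 TPM, so that COS3 was low in library 3 and high in library 4 while COS2 was the reverse. The Ty genes YGR161C-C, YPL257W-B, YER159C-A, YDR316W-A, YAR010C, YGR038C-A and YPR137C-A ranged between 0 and 37.5 TPM. TAR1, which lies antisense to ribosomal RNA, was the most abundant of the ribosomal DNA features and had 1780, 2185, 2871 and 4721 TPM. Library 4 was also the highest for the ribosomal DNA features YLR154C-G, YLR154W-A, YLR154W-B and YLR154W-E. The kit does not mark strand, so reads of ribosomal RNA left after selection and of these features cannot be told apart. The same holds for GPM1 and the overlapping YKL153W (2671 ± 137 TPM), and for PGK1 and the overlapping YCR013C (2620 ± 228 TPM).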

How the data were processed

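Poly-A RNA of 4 wild-type zinc-deficient yeast libraries was read from tables of TPM, FPKM and expected counts that the authors deposited, with units read from the column values. BWA, STAR, RSEM and edgeR are named, per the submitters' processing notes, with no role. Not given in the sources used here were versions, build and annotation. Columns matching no sample described (12 in each table) were not used.

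TPM values were taken as deposited. The authors' deposited FPKM and expected counts served as alternatives and for depth, and 18.4% of expected counts were not whole. Of 6660 features, 5986 were matched by identifier to R64 (RefSeq), which gave the coordinates and upstream sequence. The authors' effective length was found by fitting counts over TPM against coding length. Shares are sums of TPM over the total. Pair identity is of the coding sequences (Biopython 1.88, Python 3.11.15), since no protein table was used. Scripts were tested on simulated data. Trimmed mean of M-values factors came from edgeR 4.0.16 (R 4.3.3) on rounded counts. With 1 group, no comparison between groups was made or tested.

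Gene lists, pairs and the naming rule were chosen with earlier results of these data known. The rule names the 20 most abundant genes, all Zap1 list members, pairs with a gene among the 50 highest or a Zap1 target, the 5 largest and 5 smallest pair ratios with both genes at 10 or more counts, the extremes of lists that can be silent, the 10 largest coefficients of variation and the 5 most abundant members of other lists. Other genes were named after their values were seen. Counting limits cover counting error alone: with no molecular identifiers, reads may repeat a molecule. Alternatives were other units and lengths, annotated features only, other thresholds and pseudocounts, and leaving out each library.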

Additional observations from a re-analysis of the deposited data

Results flagged for a closer look

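Of 87 values examined (shares, the 20 most abundant genes, Zap1 targets and pair ratios), 1 had a library far from the other 3. GPM1, phosphoglycerate mutase, had 8261 TPM in library 1, against 7851, 7830 and 7866 TPM in libraries 2, 3 and 4. The gap of library 1 to its nearest neighbour was 0.918 of the whole range, past the 95% critical value of Dixon's test for 4 samples. Chance flags about 1 in 20 such groups, and 1.15% were flagged here.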

How the results depend on the processing

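No paired analysis was possible because only 1 group was described, so no groups were compared. Shares by FPKM equalled those by TPM. As shares of expected counts, the 10 most abundant genes took 15.9%, Zap1 targets 7.80%, glycolysis 9.62% and ribosomal proteins 5.27%. With TPM from counts and plain coding length they took 18.3%, 9.67%, 9.14% and 11.3%. Over annotated coding genes alone, Zap1 targets took 9.33% and glycolysis 8.45%. Glycolysis thus exceeded Zap1 targets as a share of counts but not of TPM. With FIT3 left out of both the genes and the total, the next 10 took 15.2%. Zap1 targets took 7.75% without ZRT1 and 1.89% as zinc transport genes alone. Leaving out each library gave 17.0% to 17.7% for the 10 most abundant, 8.92% to 9.10% for Zap1 targets, 8.05% to 8.25% for glycolysis and 12.3% to 12.7% for ribosomal proteins.

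Silent features numbered 535 under 5 TPM, 128 at 0 counts and 116 among annotated coding genes, and 232 to 244 with a library left out. Pairs with 1 member higher throughout numbered 184 to 186 under every alternative that kept all 191 pairs. They numbered 158 among pairs of 95% identity or less, a smaller set that leaves out the 30 pairs above 95%. Features varying by over 10% numbered 468 with trimmed-mean scaling, 55 at a mean of 1000 counts or more, and 457 to 882 with a library left out. PMP1 over PMP2 turned to -0.16 on counts and -0.056 with plain coding length. That setting uses the full length, where the authors' effective length is 99 bases shorter. Depth limits levels near 1 TPM most, and genes shorter than a read cannot be measured.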
